A study of Mus musculus with 20 samples.

Results

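The VEGF ligand and receptor genes were described as a set of 9 in 20 mouse mammary RNA-seq libraries, and all 9 of the listed symbols were found among 45318 Ensembl gene IDs. They are the ligand genes Vegfa, Vegfb, Vegfc and Pgf, the receptor genes Flt1 (VEGFR1), Kdr (VEGFR2) and Flt4 (VEGFR3), and the neuropilin co-receptor genes Nrp1 and Nrp2. On mm10 (GENCODE M21) the ligand genes lie at chr17:46016993-46032369 (Vegfa, minus strand), chr19:6982473-6987651 (Vegfb, minus), chr8:54077606-54187096 (Vegfc, plus) and chr12:85166635-85177790 (Pgf, minus). The receptor genes lie at chr5:147561604-147726011 (Flt1, minus), chr5:75932827-75978458 (Kdr, minus) and chr11:49609263-49652739 (Flt4, plus), and the neuropilin genes at chr8:128358604-128503363 (Nrp1, plus) and chr1:62703285-62818695 (Nrp2, plus). The members were matched by their listed symbols, and all 9 passed the filter on low counts, which left 18698 genes to test.

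The tumor material came from 3 mouse models on the FVB background. MMTV-PyMT mice, in which a mammary tumor virus promoter active in mammary epithelium drives the polyoma middle T antigen, gave organoids kept for 6 days in matrigel with FGF2 (3 libraries whose titles say day 6 and 2 whose titles give no day), organoids taken at 0 days straight after preparation (3 libraries) and 30 µm tumor cryosections (3 libraries). MMTV-Neu-NDL mice, which carry an activated Neu (ErbB2) transgene under the same promoter, gave 6-day organoids (3 libraries), while tumor sections with activated Neu (3 libraries) came from the strain MMTV-Cre;Flox-Neo-Neu-NT, whose Neu allele needs Cre to be expressed. Normal wild-type (WT) FVB mammary glands gave the 6-day organoids (3 libraries) that served as the common reference. The 2 Neu groups differ in allele as well as in material, and sections hold whole tumor tissue, whereas organoids start from isolated epithelial fragments. Whether replicates came from separate animals, and the animals' ages, are not given in the sources used here, so p-values measure the spread between these libraries, which may be technical.

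VEGF ligands are secreted proteins that bind receptor tyrosine kinases mainly on endothelial cells. Kdr carries most of the growth and permeability signal of VEGF-A, Flt1 binds VEGF-A, VEGF-B and PlGF tightly and also exists as a soluble form that traps ligand, and Flt4 serves VEGF-C and VEGF-D, chiefly on lymphatic endothelium. Neuropilins bind several VEGF forms and also the class 3 semaphorins, and Vegfa is a textbook target of the hypoxia-inducible factors. In the mammary gland, epithelial and tumor cells are known sources of VEGF-A that acts on nearby vessels.

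Gene counts ranged from 17478357 to 48341438 per library. The epithelial adhesion gene Epcam was at 897 CPM or more in every library, where CPM is the usual per-library scaling of counts with the TMM adjustment of library size. Erbb2, the mouse counterpart of the Neu gene, averaged 6196 CPM in Neu-NDL organoids and 711 CPM in Neu-NT sections. Some libraries stood apart from the rest of their groups. PyMT day 6 organoids replicate 3 had a mean log2 CPM of 3.68 over 18 endothelial markers, against -1.53 to -1.23 in the other 4 PyMT organoid libraries after 6 days, and 5.06 over 10 macrophage and myeloid markers, against 0.89 to 2.39. Neu-NT sections replicate 3 had 26.5 CPM of Pgf, against 343 and 671 CPM in the other two, and a mean log2 CPM of 5.66 over 17 hypoxia targets, against 6.73 and 7.11. Neu-NDL organoids replicate 1 had a mean log2 CPM of 1.995 over the endothelial markers, against -0.16 and -0.79 in the other two, and a summed level of 2828 CPM over 8 fibroblast markers, against 150 and 187 CPM. All libraries are kept below unless stated. The first 2 of these 3 libraries, called the pair that stood apart, were also left out together, and Neu-NDL replicate 1 by itself. In such bulk samples, fewer cells of a type and less RNA per cell cannot be told apart.

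Per kilobase of exon, the ligand genes Vegfa, Pgf and Vegfb stood above the receptor genes. The median over the 20 libraries was 86.9 RPKM (CPM per kilobase) for Vegfa, 40.8 for Pgf and 14.8 for Vegfb. Among the others the medians were 1.74 RPKM for Flt1, 1.59 for Nrp1, 1.32 for Nrp2, 1.29 for Vegfc, 1.03 for Kdr and 0.366 for Flt4. This ranking is of levels over all groups together, and the order of the groups differed from gene to gene.

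Calls were made with edgeR's quasi-likelihood test at a Benjamini-Hochberg adjusted p under 0.05 over all 18698 genes. Beside each count stands the share of all genes tested that was called, in both directions and then higher and lower. In the 5 PyMT organoid libraries after 6 days against WT organoids, 1 of the 9 genes was called, Flt1, which was higher (3.89% of all genes, 1.4% higher and 2.49% lower). None was called in Neu-NDL organoids against WT organoids (4.52% of all genes, 2.47% higher and 2.06% lower). PyMT sections against WT organoids gave 1 call, Vegfa, which was lower (12.5% of all genes, 6.45% higher and 6.05% lower). Neu-NT sections against WT organoids gave 1 call, Flt1, which was higher (19% of all genes, 10.5% higher and 8.47% lower).

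Day 6 against day 0 PyMT organoids gave no call (0.626% of all genes, 0.166% higher and 0.46% lower), and day 0 organoids against PyMT sections gave none (0.444% of all genes, 0.428% higher and 0.016% lower). The 6-day PyMT organoids against PyMT sections gave 6 calls, 4 higher and 2 lower (16% of all genes, 7.69% higher and 8.3% lower). PyMT sections against Neu-NT sections gave 1 call, Pgf, which was lower (9.7% of all genes, 4.57% higher and 5.13% lower). The 6-day PyMT against Neu-NDL organoids gave 2 calls, Flt1 higher and Nrp1 lower (7.12% of all genes, 2.42% higher and 4.7% lower). Neu-NDL organoids against Neu-NT sections gave 1 call, Flt1, which was lower (7.97% of all genes, 4.06% higher and 3.91% lower). Comparisons that share a group share its libraries, so their values are not independent of each other. Flt1 was called in 5 of the 10 comparisons, and Vegfc, Flt4 and Nrp2 in none.

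**Figure D1:**
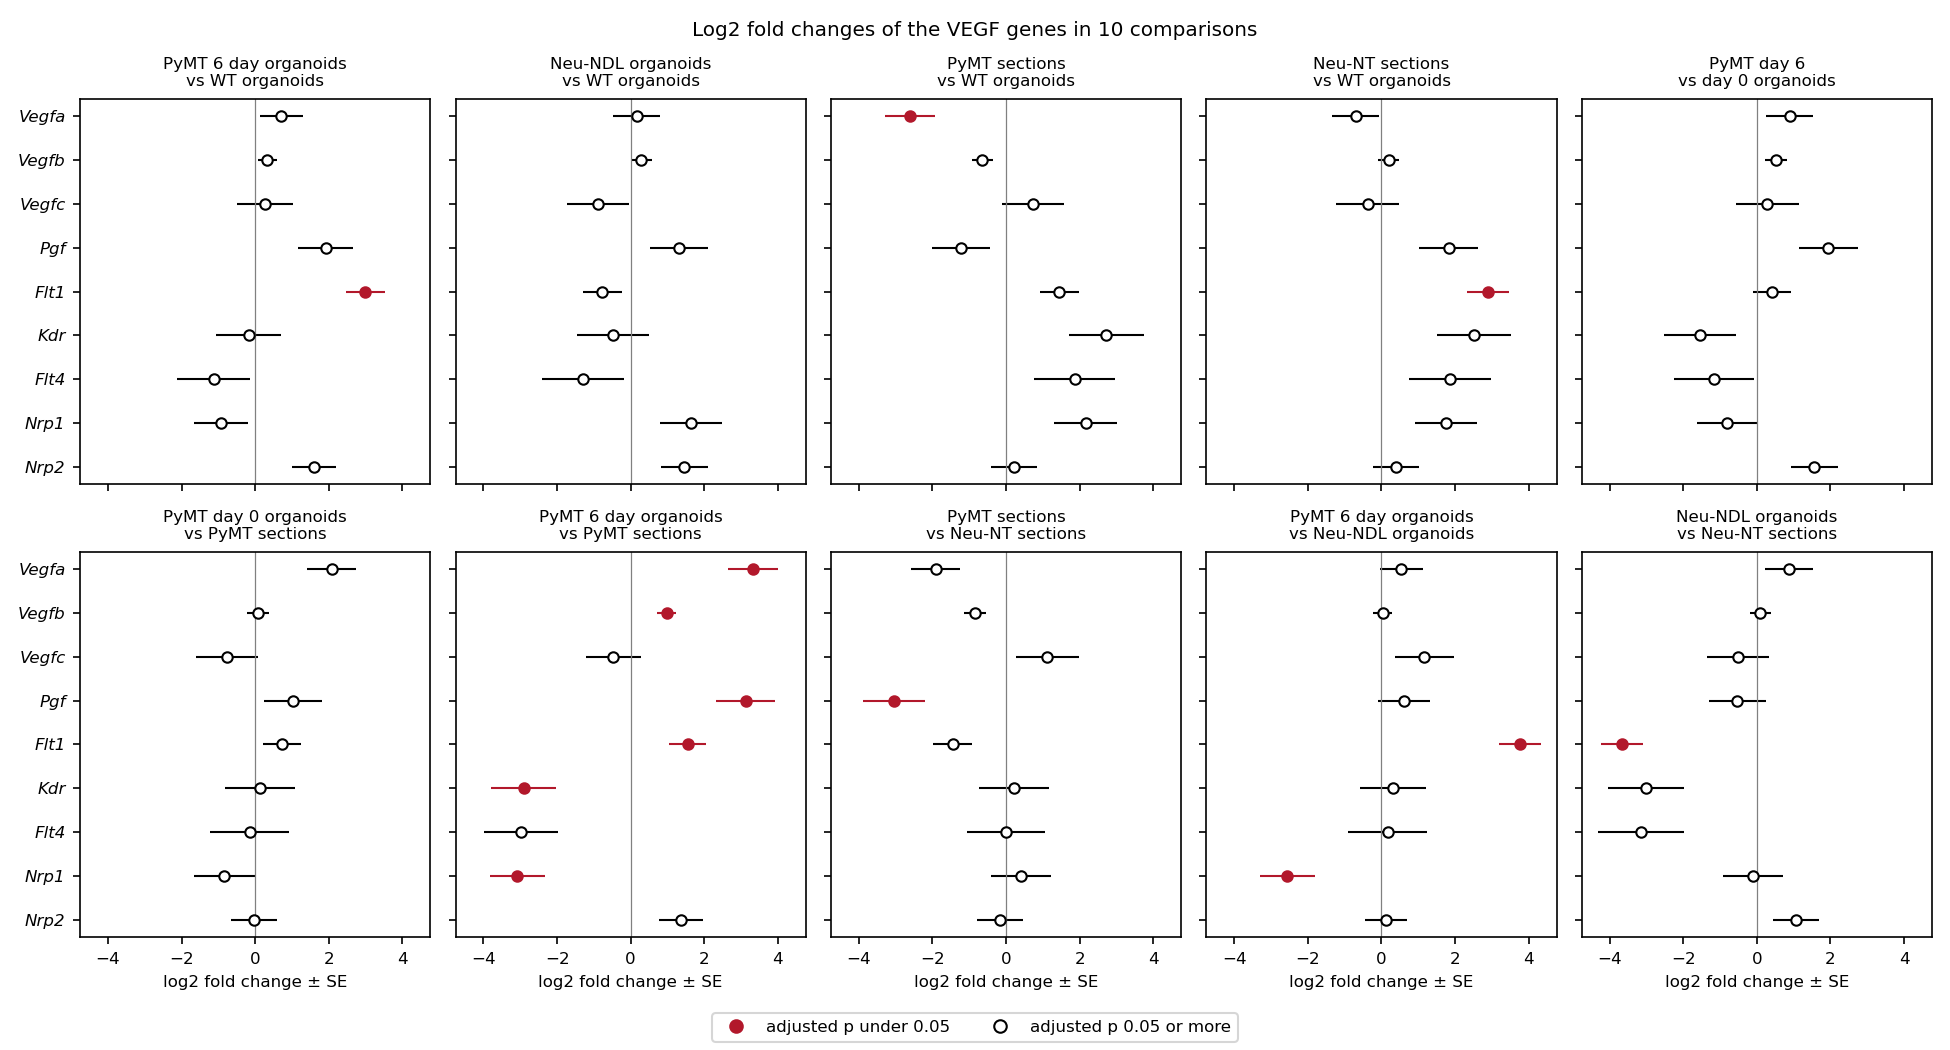
Log2 fold changes of the 9 genes (points) with their standard errors (lines) in 10 comparisons, each named as first group vs second group above its panel; filled red points have an adjusted p under 0.05. Flt1 is called in 5 of the panels, and the panel of 6-day PyMT organoids against PyMT sections has 6 filled points.

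Vegfa, which encodes the main vessel growth factor, was lowest in PyMT sections and highest in the PyMT organoids after culture. It had 629, 829 and 117 CPM in PyMT day 6 organoids, 725 and 1013 CPM in undated PyMT organoids, and 362, 357 and 131 CPM in day 0 organoids. Neu-NDL organoids had 403, 497 and 491 CPM, PyMT sections 29.1, 61.8 and 111 CPM, Neu-NT sections 220, 447 and 94.4 CPM, and WT organoids 289, 383 and 567 CPM. The PyMT sections lay below every WT and every organoid library, and replicate 3 was the low one in the day 6, day 0 and Neu-NT groups. By group mean the order was undated PyMT, day 6 PyMT, Neu-NDL, WT, day 0 PyMT, Neu-NT and PyMT sections, and the library ranges of each neighboring pair in that order overlapped.

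Vegfa was 10.03-fold higher in 6-day PyMT organoids than in PyMT sections (log2 3.33, SE 0.68, adjusted p = 0.0133; n = 5 and 3), with no overlap between the libraries. Without PyMT sections replicate 1 the difference was 2.99 and no longer passed (adjusted p = 0.0724). In PyMT sections it fell by 2.62 on the log2 scale relative to WT organoids (SE 0.68, adjusted p = 0.0247; n = 3 each), again without overlap. That call was lost when WT replicate 2 (adjusted p = 0.0590), WT replicate 3 (0.0869), PyMT sections replicate 1 (0.0923) or PyMT sections replicate 2 (0.0635) was left out, with log2 changes of -2.67, -2.32, -2.26 and -2.57. Relative to WT organoids, the log2 difference was 0.71 in 6-day PyMT organoids (SE 0.59, adjusted p = 0.534) and 0.17 in Neu-NDL organoids (SE 0.64, adjusted p = 0.918). Day 0 organoids had 4.21 times the Vegfa of PyMT sections without overlap, but the difference did not pass (log2 2.07, SE 0.67, adjusted p = 0.375), and it passed without the pair that stood apart (log2 2.11, SE 0.47, adjusted p = 0.0451), neither of which belongs to these groups. PyMT sections against Neu-NT sections gave -1.92 (SE 0.67, adjusted p = 0.0778), and -2.34 without that pair (SE 0.51, adjusted p = 0.00498).

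Pgf encodes placental growth factor, a ligand of Flt1 that does not bind Kdr. It had 538, 345 and 90.5 CPM in PyMT day 6 organoids, 327 and 502 CPM in undated PyMT organoids, and 88.0, 57.9 and 109 CPM in day 0 organoids. Neu-NDL organoids had 198, 214 and 310 CPM, PyMT sections 20.0, 29.9 and 76.0 CPM, Neu-NT sections 343, 671 and 26.5 CPM, and WT organoids 87.8, 76.8 and 128 CPM. The 3 Neu-NDL libraries were all above the WT libraries, the PyMT sections all below them, and 4 of 5 PyMT organoid libraries after culture exceeded every WT and day 0 library.

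Pgf was 8.75-fold higher in 6-day PyMT organoids than in PyMT sections (log2 3.13, SE 0.81, adjusted p = 0.0237), with no overlap between the libraries. That call was lost without PyMT sections replicate 1 (log2 2.82, adjusted p = 0.0959) or replicate 2 (2.98, 0.0742), and without undated PyMT replicate 1 (3.32, 0.0543) or replicate 2 (2.96, 0.0530). In PyMT sections Pgf was lower than in Neu-NT sections (log2 -3.05, SE 0.84, adjusted p = 0.0323; n = 3 each), although Neu-NT replicate 3 lay within the PyMT range. This difference was -2.14 without Neu-NT replicate 2 (adjusted p = 0.141) and -3.10 without Neu-NT replicate 1 (0.0685). Leaving out PyMT sections replicate 1 gave -2.71 (0.122) and PyMT sections replicate 2 gave -2.89 (0.0982). Against WT organoids, Pgf differed by 1.91 in 6-day PyMT organoids (SE 0.75, adjusted p = 0.164), 1.30 in Neu-NDL organoids (SE 0.79, adjusted p = 0.376), 1.83 in Neu-NT sections (SE 0.80, adjusted p = 0.120) and -1.22 in PyMT sections (SE 0.79, adjusted p = 0.314). Without the pair that stood apart, it was called higher in 6-day PyMT organoids (log2 2.17, SE 0.43, adjusted p = 0.00569) and in Neu-NT sections (log2 2.39, SE 0.48, adjusted p = 0.00226), and lower in PyMT sections (log2 -1.24, SE 0.44, adjusted p = 0.0479). Low Pgf was among the values that set Neu-NT replicate 3 apart, and the PyMT library left out had the lowest Pgf after culture. The 2 higher calls thus follow in part from the choice of libraries. Without PyMT day 6 replicate 3 alone, the 6-day PyMT difference was 2.13 and did not pass (SE 0.72, adjusted p = 0.0696). Neither library left out belongs to PyMT sections or WT organoids. Between these groups the difference hardly moved, and its SE fell from 0.79 to 0.44, so the lower call also rests on that choice.

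Vegfb, whose product binds Flt1, varied less than the other ligand genes, by 3.70-fold between its lowest and highest library, against 33.6-fold or more for the other three. It ranged from 23.2 to 30.0 CPM in PyMT day 6 organoids and was at 52.9 and 33.9 CPM in undated PyMT organoids, against 14.3 to 18.9 CPM in PyMT sections. These libraries did not overlap, and Vegfb was 1.97-fold higher in 6-day PyMT organoids than in PyMT sections (log2 0.98, SE 0.27, adjusted p = 0.0288). The call was lost without PyMT sections replicate 1 (0.88, adjusted p = 0.110) or 2 (1.04, 0.0666), PyMT day 6 replicate 1 (0.91, 0.0532) or undated PyMT replicate 1 (0.83, 0.101). It had 16.0 to 19.6 CPM in day 0 organoids, 25.6 to 39.6 CPM in Neu-NDL organoids, 16.4 to 38.5 CPM in Neu-NT sections and 21.0 to 34.9 CPM in WT organoids. In the order of group means, the day 6 PyMT and day 0 PyMT ranges were the only neighbors that did not overlap.

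Vegfc, the ligand of Flt4, was low throughout, between 0.096 and 6.40 CPM, and it was called in none of the 10 comparisons. PyMT sections had 6.03, 3.52 and 5.51 CPM, and Neu-NDL organoids had 4.22, 0.510 and 0.096 CPM. Its means in the 7 groups lay between 1.61 ± 2.27 CPM in Neu-NDL organoids and 5.02 ± 1.33 CPM in PyMT sections (SD, n = 3 each), with overlap between all neighbors in the order. Vegfd, the second Flt4 ligand and no member of the set, was also low, at 0.689 ± 0.484 CPM in 6-day PyMT organoids, 6.41 ± 8.57 CPM in Neu-NDL organoids and 3.93 ± 1.31 CPM in WT organoids (SD, n = 5, 3 and 3).

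**Figure D2:**
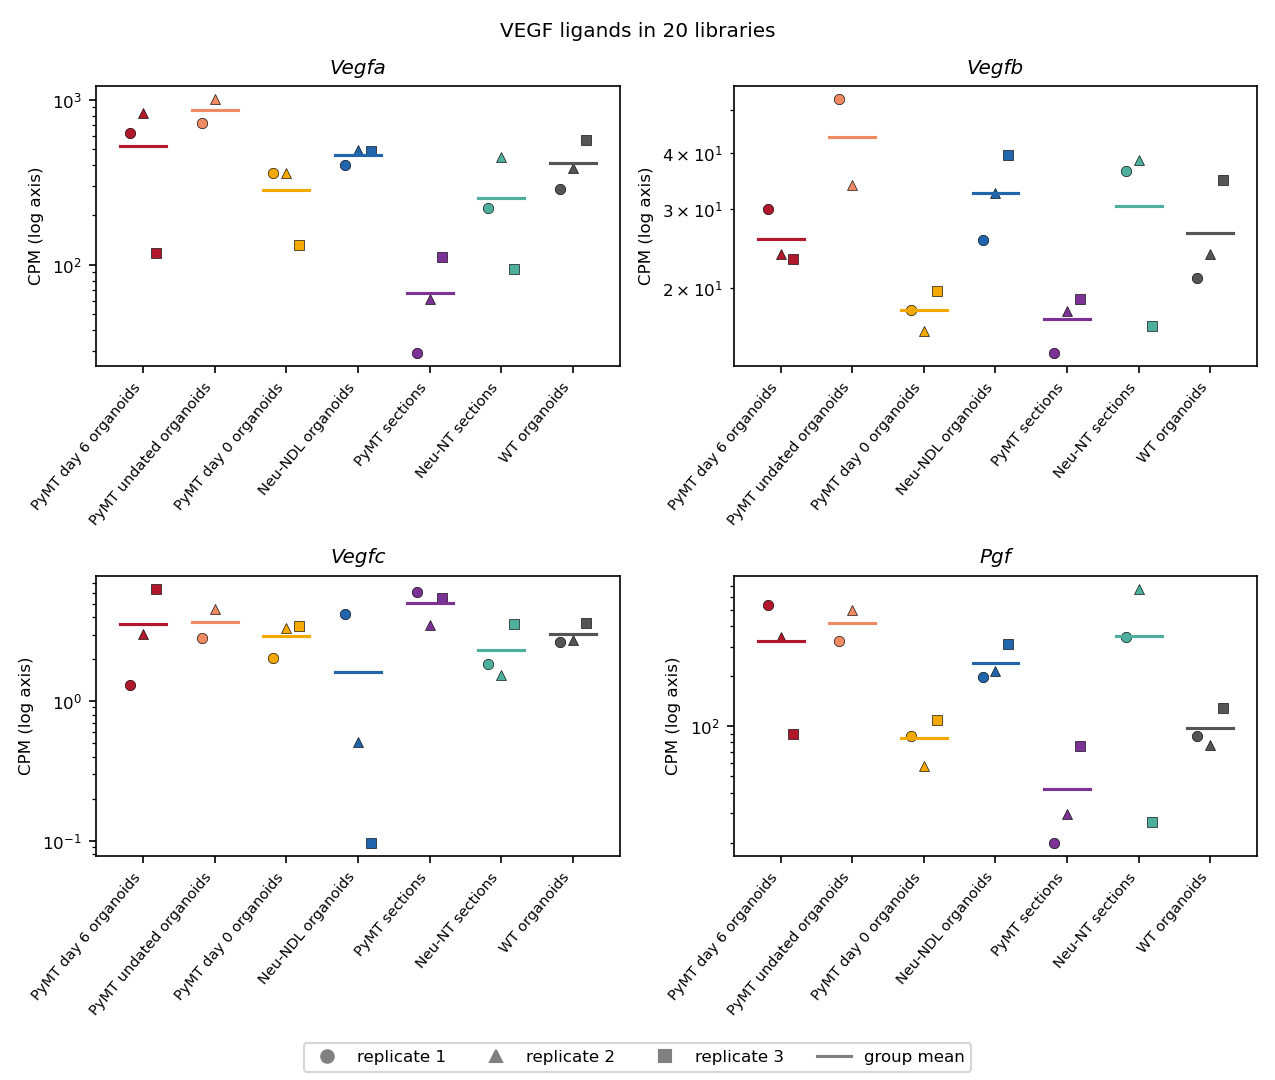
CPM of the 4 ligand genes in each of the 20 libraries on log axes, by group; the symbol shape gives the replicate number and the bar the group mean. The 3 PyMT section libraries of Vegfa (29.1 to 111 CPM) lie below all WT and organoid libraries, and replicate 3 of PyMT day 6 organoids has the lowest Vegfa (117 CPM) and Pgf (90.5 CPM) of the PyMT libraries after culture.

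The sequence just upstream of the start is shown for Vegfa and for Flt1 and Kdr, the 2 receptor genes that parted in the PyMT organoids after culture. The windows lie before the RefSeq transcript start nearest to the annotated gene start, within no annotated exon of the gene, and come from RefSeq (GRCm38.p6), all on the minus strand and printed 5′ to 3′ in the direction of transcription. Capitals mark the core of the hypoxia response element, ACGTG or GCGTG, searched on both strands (CACGT or CACGC on the printed one), so that CACGTG would match in both directions. The Vegfa window is chr17:46032378-46032627, that of Flt1 chr5:147726012-147726261 and that of Kdr chr5:75978459-75978705.
Vegfa: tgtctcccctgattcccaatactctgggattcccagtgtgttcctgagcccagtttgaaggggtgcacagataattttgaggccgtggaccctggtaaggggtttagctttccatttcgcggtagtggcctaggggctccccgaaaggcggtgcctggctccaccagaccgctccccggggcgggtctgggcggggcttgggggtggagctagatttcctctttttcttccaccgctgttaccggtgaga
Flt1: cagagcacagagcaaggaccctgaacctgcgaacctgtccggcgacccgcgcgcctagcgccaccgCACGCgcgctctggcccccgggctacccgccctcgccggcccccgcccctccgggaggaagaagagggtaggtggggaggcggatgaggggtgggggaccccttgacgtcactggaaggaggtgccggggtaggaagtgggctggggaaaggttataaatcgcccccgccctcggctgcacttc
Kdr: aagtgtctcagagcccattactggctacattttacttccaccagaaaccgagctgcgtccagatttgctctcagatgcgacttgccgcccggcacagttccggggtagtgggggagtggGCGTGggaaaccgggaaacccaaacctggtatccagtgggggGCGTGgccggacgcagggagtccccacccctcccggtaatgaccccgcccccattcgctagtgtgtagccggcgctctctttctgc
The Vegfa window holds no match, that of Flt1 1 and that of Kdr 2. Over the 250 bases before the start, 6 of the 9 genes had a match, where 38.6% of all 32851 RefSeq promoter windows of this length did. A match is only a run of letters, and a window without one says nothing of elements farther from the start.

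Flt1, whose product binds VEGF-A, VEGF-B and PlGF, had 57.7, 36.7 and 18.6 CPM in PyMT day 6 organoids, 83.0 and 51.9 CPM in undated PyMT organoids, and 24.7, 31.3 and 29.5 CPM in day 0 organoids. It had 7.39, 2.67 and 1.01 CPM in Neu-NDL organoids, 14.3, 15.0 and 22.3 CPM in PyMT sections, 46.6, 63.7 and 30.9 CPM in Neu-NT sections, and 4.83, 7.90 and 6.24 CPM in WT organoids. Every PyMT and every Neu-NT library exceeded all 3 WT libraries, whereas the Neu-NDL libraries overlapped them. By group mean the order was undated PyMT, Neu-NT, day 6 PyMT, day 0 PyMT, PyMT sections, WT and Neu-NDL. Neighbors overlapped except day 0 organoids with PyMT sections, and PyMT sections with WT organoids. Gene counts do not separate the membrane and the soluble form of Flt1.

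Flt1 was 7.96-fold higher in 6-day PyMT organoids than in WT organoids (log2 2.99, SE 0.54, adjusted p = 0.00824) and 7.44-fold higher in Neu-NT sections than in WT organoids (log2 2.89, SE 0.56, adjusted p = 0.00320). Both calls were kept in all alternatives run, 16 for the first (log2 2.57 to 3.41) and 12 for the second (log2 2.62 to 3.13). Between models, Flt1 was 13.6-fold higher in 6-day PyMT than in Neu-NDL organoids (log2 3.76, SE 0.56, adjusted p = 0.00359). It was 12.7-fold lower in Neu-NDL organoids than in Neu-NT sections (log2 -3.67, SE 0.58, adjusted p = 0.00296), groups that differ in material as well as in allele. Each of these 2 calls held with any single library left out but not when only the libraries compared were fitted, where the adjusted p was 0.114 and 0.0822. Flt1 was also higher in 6-day PyMT organoids than in PyMT sections (log2 1.55, SE 0.50, adjusted p = 0.0457), with overlapping libraries. That call was lost under 11 of 16 alternatives, among them the omission of any library compared but PyMT day 6 replicate 3 (log2 1.33 to 1.79, adjusted p 0.0641 to 0.147). PyMT sections exceeded WT organoids by 1.45 without overlap (SE 0.53, adjusted p = 0.0831). Neu-NDL organoids against WT organoids gave -0.77 (SE 0.53, adjusted p = 0.446), and -1.76 without Neu-NDL replicate 1 (adjusted p = 0.0487).

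The difference between organoids after culture and sections was set against itself across the models, a comparison chosen after seeing the data. For Flt1, the log2 difference of 6-day PyMT organoids minus PyMT sections exceeded that of Neu-NDL organoids minus Neu-NT sections by 5.21 (SE 0.76, adjusted p = 0.00308), where 6.12% of all genes were called, 3.22% higher and 2.9% lower. It was called in all 22 alternatives run (4.79 to 6.25). Of the other genes, Pgf had 3.66 (SE 1.10, adjusted p = 0.0572), Vegfa 2.46 (SE 0.89, adjusted p = 0.104) and Nrp1 -2.96 (SE 1.11, adjusted p = 0.116). Without the pair that stood apart 5 of the 9 passed (23.2% of all genes), namely Vegfa (3.14), Vegfb (1.25), Pgf (4.48), Flt1 (5.66) and Nrp1 (-4.67), with adjusted p of 0.00518, 0.0140, 0.000438, 0.000203 and 0.00104. The Neu organoids and sections carry different alleles, so the material and the allele cannot be told apart on the Neu side of this comparison.

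Kdr, the main signaling receptor of VEGF-A on blood vessels, had 1.03, 0.888 and 21.7 CPM in PyMT day 6 organoids, 0.973 and 1.03 CPM in undated PyMT organoids, and 17.3, 20.3 and 32.02 CPM in day 0 organoids. It had 5.09, 0.787 and 0.909 CPM in Neu-NDL organoids, 21.5, 13.6 and 28.2 CPM in PyMT sections, 21.1, 14.8 and 18.8 CPM in Neu-NT sections, and 0.826, 4.68 and 4.06 CPM in WT organoids. Sections and day 0 organoids were all at 13.6 CPM or more, and organoids after culture all at 5.09 CPM or less except PyMT day 6 replicate 3. The group order was day 0 PyMT, PyMT sections, Neu-NT, day 6 PyMT, WT, Neu-NDL and undated PyMT, and all neighbors overlapped.

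Kdr was 7.49-fold lower in 6-day PyMT organoids than in PyMT sections (log2 -2.90, SE 0.88, adjusted p = 0.0382), and the libraries overlapped through PyMT day 6 replicate 3. Without that library the difference was -4.43 (SE 0.66, adjusted p = 0.000208). It was set apart by its endothelial markers, which ran with Kdr, Flt4 and Nrp1 across libraries. Values of these genes without it therefore depend on that choice and are a description. Leaving out any one of the other 7 libraries ended the call (adjusted p 0.0503 to 0.123). Day 6 against day 0 PyMT organoids gave -1.56 for Kdr (SE 0.98, adjusted p = 0.497), and without day 6 replicate 3 it gave -4.60 (SE 0.89, adjusted p = 0.00441). Relative to WT organoids, Kdr had a log2 difference of 2.73 in PyMT sections (SE 1.02, adjusted p = 0.0872) and 2.52 in Neu-NT sections (SE 1.01, adjusted p = 0.0934), in neither case with overlap. Both passed without the pair that stood apart, at 2.71 (SE 0.68, adjusted p = 0.0102) and 2.49 (SE 0.72, adjusted p = 0.0184). Neu-NDL organoids against Neu-NT sections gave -3.00 (SE 1.04, adjusted p = 0.0829), and -2.97 without that pair (SE 0.73, adjusted p = 0.0146). Without Neu-NDL replicate 1 it gave -4.40 (adjusted p = 0.0469).

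Flt4, the VEGF-C and VEGF-D receptor, followed Kdr at a lower level. It had 0.109, 0.273 and 7.10 CPM in PyMT day 6 organoids and 0.268 and 0.221 CPM in undated PyMT organoids, against 5.63, 4.02 and 9.15 CPM in PyMT sections. Day 0 organoids had 3.53 to 7.28 CPM, Neu-NDL organoids 0.168 to 1.72 CPM, Neu-NT sections 4.96 to 8.23 CPM and WT organoids 0.516 to 2.50 CPM. The 6-day PyMT organoids against PyMT sections gave -2.99 (SE 1.01, adjusted p = 0.0534), and -4.80 without day 6 replicate 3 (SE 0.78, adjusted p = 0.000422). Day 6 against day 0 PyMT organoids gave -1.17 (SE 1.09, adjusted p = 0.676), and -4.80 without that library (SE 1.07, adjusted p = 0.00951). Relative to WT organoids, the 6-day PyMT organoids had -1.13 (SE 0.99, adjusted p = 0.559), and -2.94 without it (SE 0.75, adjusted p = 0.0244). Neu-NDL organoids against Neu-NT sections gave -3.16 (SE 1.17, adjusted p = 0.102), -2.91 without the pair that stood apart (SE 0.82, adjusted p = 0.0281) and -5.06 without Neu-NDL replicate 1 (adjusted p = 0.0471).

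**Figure D3:**
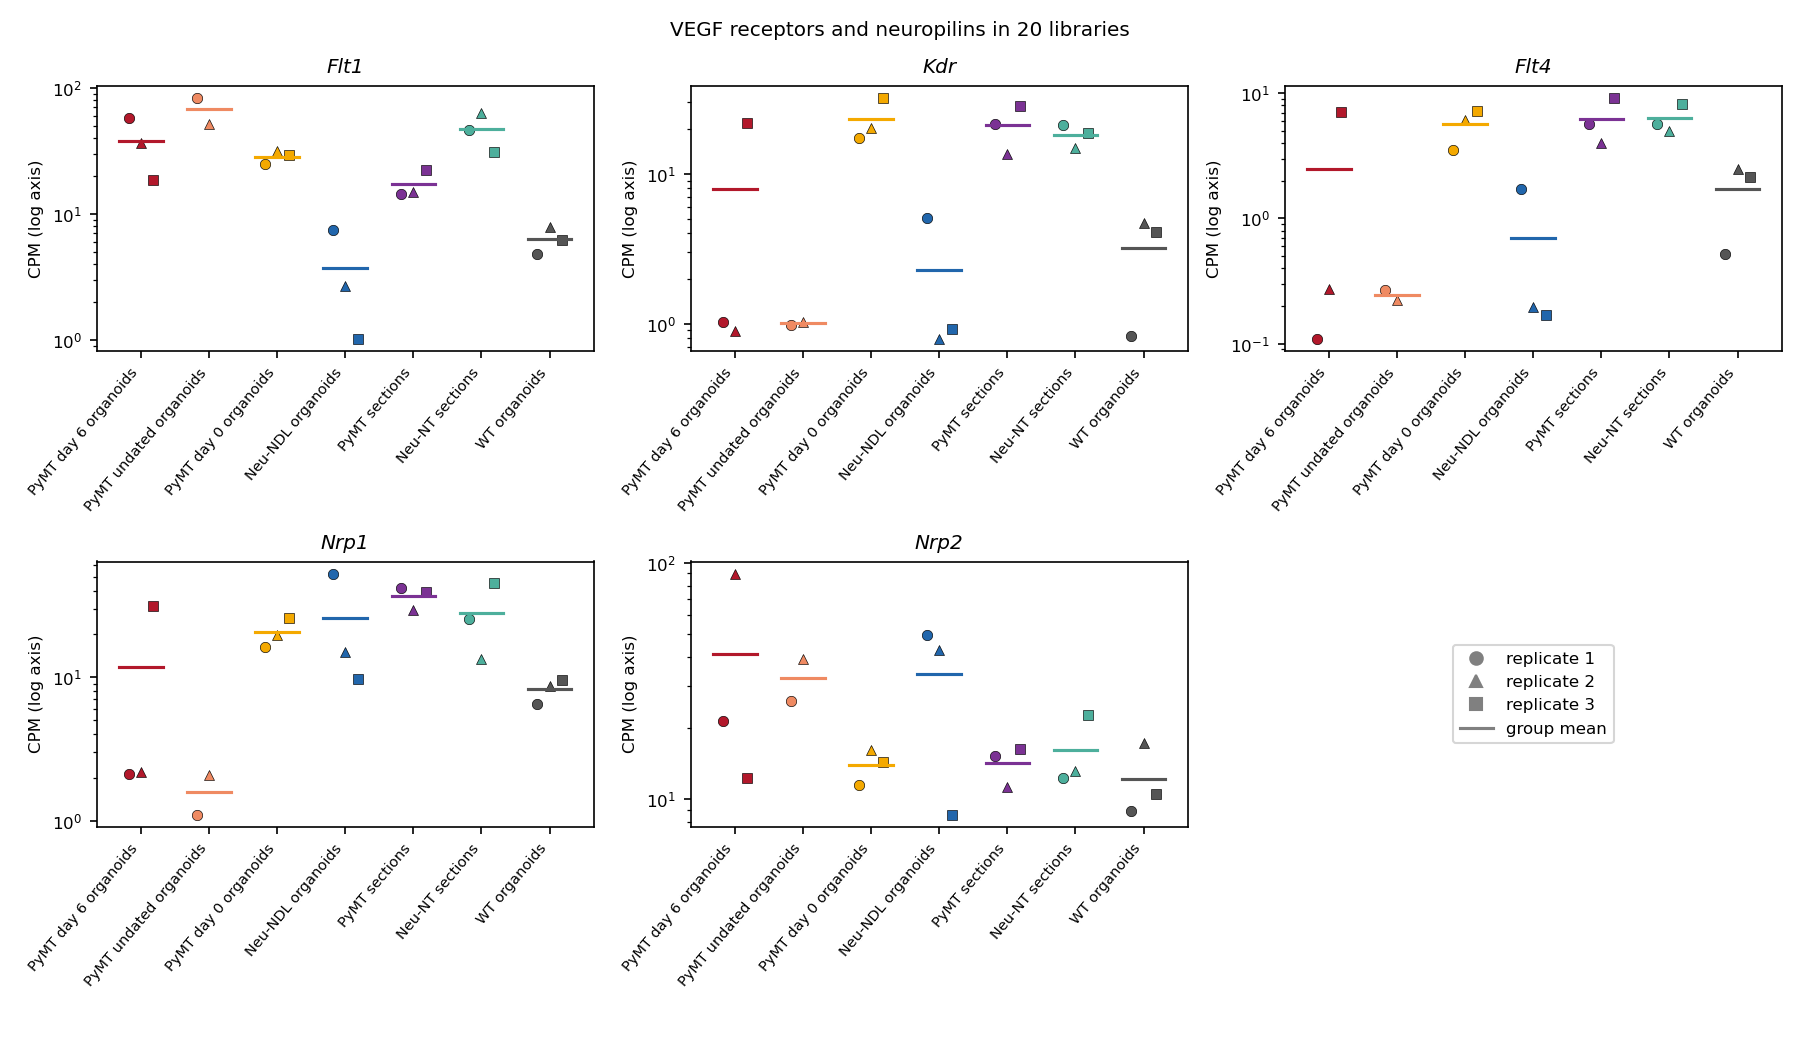
CPM of the receptor and neuropilin genes in each of the 20 libraries on log axes, by group; the symbol shape gives the replicate number and the bar the group mean. In PyMT organoids after culture, Flt1 lies at 18.6 to 83.0 CPM while Kdr and Flt4 are near 1 CPM or lower in 4 of 5 libraries, and replicate 3 of day 6 (square) sits among or near the sections in Kdr, Flt4 and Nrp1.

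The ratio of Flt1 to Kdr, worked out after seeing the data, separated those 4 PyMT libraries from the other 16. In CPM it was 56.0 and 41.4 in PyMT day 6 replicates 1 and 2, and 85.3 and 50.3 in the undated PyMT organoids. It was 0.857 in day 6 replicate 3. Elsewhere it was 0.921 to 1.54 in day 0 organoids, 1.11 to 3.39 in Neu-NDL organoids, 0.667 to 1.11 in PyMT sections, 1.64 to 4.30 in Neu-NT sections and 1.54 to 5.84 in WT organoids. Per kilobase of exon the same 4 libraries had ratios of 27.7 to 57.1. This split is a description, with no test.

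Nrp1, a co-receptor of VEGF-A and semaphorins, had 2.12, 2.19 and 31.0 CPM in PyMT day 6 organoids, 1.11 and 2.10 CPM in undated PyMT organoids, and 16.3, 19.7 and 25.9 CPM in day 0 organoids. It had 52.6, 14.9 and 9.67 CPM in Neu-NDL organoids, 41.9, 29.6 and 38.9 CPM in PyMT sections, 25.5, 13.3 and 44.9 CPM in Neu-NT sections, and 6.48, 8.65 and 9.59 CPM in WT organoids. Apart from day 6 replicate 3, the PyMT organoids after culture were the lowest of all libraries. Nrp1 was 8.46-fold lower in 6-day PyMT organoids than in PyMT sections (log2 -3.08, SE 0.76, adjusted p = 0.0205), and 5.91-fold lower than in Neu-NDL organoids (log2 -2.56, SE 0.74, adjusted p = 0.0482). Without day 6 replicate 3 these were -4.31 (SE 0.53, adjusted p = 5.52e-05) and -3.79 (SE 0.52, adjusted p = 0.000299). The first was lost without PyMT sections replicate 1 (adjusted p = 0.0739) or without undated PyMT replicate 1 (0.0830) or 2 (0.0559), and the second without either of PyMT day 6 replicates 1 and 2 (0.0622 and 0.0597), undated PyMT replicates 1 and 2 (0.163 and 0.112) or Neu-NDL replicates 1 and 2 (0.232 and 0.0683), with a difference of -1.51 without Neu-NDL replicate 1. Relative to WT organoids, Nrp1 had -0.92 in 6-day PyMT organoids (SE 0.74, adjusted p = 0.512), and -2.15 without day 6 replicate 3 (SE 0.50, adjusted p = 0.0169). PyMT sections against WT organoids gave 2.16 (SE 0.85, adjusted p = 0.102), with no overlap. A microRNA gene, Mir1903, lies on the same strand within Nrp1 exons, and how reads there were assigned is not given in the sources used here.

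Nrp2, which binds VEGF-C and semaphorins, had 21.5, 89.9 and 12.2 CPM in PyMT day 6 organoids and 26.1 and 39.1 CPM in undated PyMT organoids, against 8.88, 17.2 and 10.5 CPM in WT organoids. Neu-NDL organoids had 49.6, 42.8 and 8.59 CPM, day 0 organoids 11.4 to 16.1 CPM, PyMT sections 11.2 to 16.3 CPM and Neu-NT sections 12.2 to 22.7 CPM. A single library, day 6 replicate 2, held the highest value. The 6-day PyMT organoids differed from WT organoids by 1.59 (SE 0.60, adjusted p = 0.146), and by 1.80 without day 6 replicate 3 (SE 0.54, adjusted p = 0.0456). Neu-NDL organoids differed from WT organoids by 1.46 (SE 0.64, adjusted p = 0.200). With all libraries kept, edgeR's quasi-likelihood test called Nrp2 in no comparison, whereas DESeq2 called it higher in 6-day PyMT than in WT organoids.

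Leaving out the pair of libraries that stood apart gave more calls among the 9 genes in every comparison but 6-day PyMT against Neu-NDL organoids, where 2 were called both times, and the share of all genes called was larger too. The pair was picked by values in these data, so the calls are a description. Against WT organoids, 5 of the 9 genes were then called in 6-day PyMT organoids (16.5% of all genes), 1 in Neu-NDL organoids (14.5%), 6 in PyMT sections (27%) and 3 in Neu-NT sections (29%). The call in Neu-NDL organoids was Nrp1 (1.65, SE 0.49, adjusted p = 0.0374, against 0.282 with all libraries). Neither library of the pair belongs to Neu-NDL or WT organoids, and Nrp1 ranged from 9.67 to 52.6 CPM in the Neu-NDL libraries. With single libraries left out, that difference ran from 0.59 to 2.06 and was not called (adjusted p 0.286 to 0.707). The calls in PyMT sections were Vegfa, Pgf and Kdr with Vegfb (-0.66, SE 0.22, adjusted p = 0.0425), Flt1 (1.43, SE 0.49, adjusted p = 0.0422) and Nrp1 (2.15, SE 0.50, adjusted p = 0.00629). In PyMT against Neu-NT sections 4 were called (23.2% of all genes), Vegfa and Pgf with Vegfb (-1.16, SE 0.25, adjusted p = 0.00420) and Flt1 (-1.70, SE 0.52, adjusted p = 0.0299). Day 6 against day 0 PyMT organoids had 5 calls (18.8% of all genes). In that contrast Pgf (2.41, SE 0.48, adjusted p = 0.00411) and Nrp2 (2.03, SE 0.60, adjusted p = 0.0312) were higher at day 6. Kdr (-4.57, SE 0.91, adjusted p = 0.00415), Flt4 (-4.76, SE 1.07, adjusted p = 0.00808) and Nrp1 (-3.23, SE 0.63, adjusted p = 0.00363) were lower. In 6-day PyMT organoids against PyMT sections, 8 of 9 genes were called without them (40.6% of all genes), all but Vegfc. With both kept, none of the 9 and no other gene was called in this comparison when only those 8 libraries were fitted or when the day 6 libraries were used without the undated ones.

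The receptor genes were set beside 18 endothelial markers, 3 of which (Tie1, Tek and Ptprb) also stand in other lists used here. The summed level of the markers was 12.2 and 13.8 CPM in PyMT day 6 replicates 1 and 2, 347 CPM in day 6 replicate 3, and 18.8 and 19.2 CPM in the undated PyMT organoids. It ranged from 203 to 443 CPM in day 0 organoids, 20.8 to 142 CPM in Neu-NDL organoids, 241 to 355 CPM in PyMT sections, 259 to 357 CPM in Neu-NT sections and 37.8 to 117 CPM in WT organoids. Sox17 had no count in 3 PyMT libraries after culture, Tek in 1 and Icam2 in 1. In 6-day PyMT organoids against PyMT sections, 8.3% of all genes were called lower and 7.69% higher. These shares belong beside every list count given below for that comparison. Of the 18, 11 were called lower and none higher in 6-day PyMT organoids than in PyMT sections (median log2 difference -3.45, against -0.06 over all genes). Among them was Vwf, von Willebrand factor, at 0.943 ± 1.07 CPM in 6-day PyMT organoids and 9.15 ± 6.90 CPM in PyMT sections (SD, n = 5 and 3; log2 -3.76, SE 0.73, adjusted p = 0.0123). Against WT organoids, 1 of 18 was lower in 6-day PyMT organoids, none was called in PyMT sections and 1 was higher in Neu-NT sections. Of all genes, 2.49% were lower in the first, 12.5% called in the second and 10.5% higher in the third. Of 4 lymphatic endothelial markers tested, 2 were lower and none higher in 6-day PyMT organoids than in PyMT sections, and Flt4 had an r of 0.451 with their mean log2 CPM over the 20 libraries.

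Across the 20 libraries, Pearson's r with the mean log2 CPM of those markers was 0.959 for Kdr, 0.979 for Flt4, 0.868 for Nrp1 and 0.0834 for Flt1. The libraries share groups and the marker genes share cells, so these values are a description. Their r with the mean of 7 pericyte markers was as high, at 0.951 for Kdr, 0.950 for Flt4 and 0.867 for Nrp1, and with that of the 8 fibroblast markers it was 0.718, 0.778 and 0.828 for these genes. In 6-day PyMT organoids against PyMT sections, 2 of the pericyte and 1 of the fibroblast markers were lower and none higher. Nrp1 also ran with the macrophage and myeloid markers (r = 0.905). In 6-day PyMT against Neu-NDL organoids, where Nrp1 was lower, 7 of 10 of those markers were also lower and none higher (4.7% of all genes lower). The part of endothelial, pericyte, fibroblast and myeloid markers in the Kdr, Flt4 and Nrp1 differences was not tested. Flt1 was at 36.7 to 83.0 CPM in the 4 libraries where the endothelial markers were lowest.

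**Figure D4:**
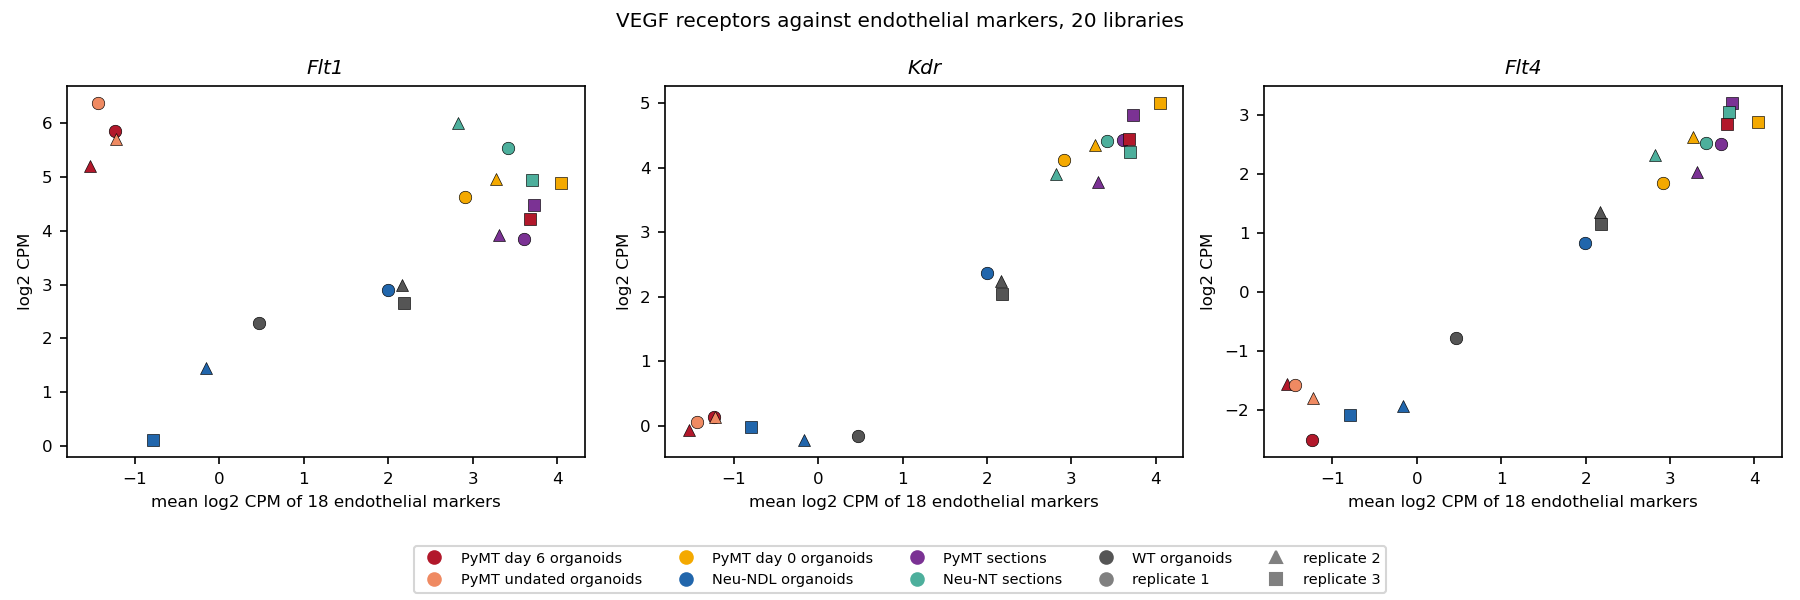
Log2 CPM of Flt1, Kdr and Flt4 (vertical axes) against the mean log2 CPM of 18 endothelial markers (horizontal axes), 1 point per library, colored by group. Kdr and Flt4 follow the markers (r = 0.959 and 0.979), while 4 PyMT organoid libraries after culture have high Flt1 at the lowest marker level (r = 0.0834 over all 20).

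The ligand genes were set beside 17 hypoxia targets. Their mean log2 CPM was 8.05 to 8.36 in the 4 PyMT libraries after culture other than day 6 replicate 3, which had 6.13. It was 6.04 to 6.77 in day 0 organoids, 7.26 to 7.67 in Neu-NDL organoids, 5.45 to 6.08 in PyMT sections, 5.66 to 7.11 in Neu-NT sections and 7.14 to 7.90 in WT organoids. Across the 20 libraries r with that mean was 0.958 for Vegfa, 0.793 for Pgf and 0.729 for Vegfb, again as a description. The WT organoids also lay above all 6 section libraries, from which they differ in material, culture and genotype together. Vegfa had r of -0.757 with the endothelial, -0.67 with the pericyte and -0.79 with the fibroblast markers. Kdr had r of -0.828 with the hypoxia targets. The part of hypoxia or of the mix of cells in the ligand differences was not tested.

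Of the 17 targets, 13 were higher and none lower in 6-day PyMT organoids than in PyMT sections (median 2.53, against -0.06 over all genes). The glucose transporter gene Slc2a1 had 425 ± 174 CPM in 6-day PyMT organoids and 99.2 ± 21.6 CPM in PyMT sections (SD, n = 5 and 3; log2 2.12, SE 0.37, adjusted p = 0.0109), and the carbonic anhydrase gene Car9 had 158 ± 89.7 and 23.9 ± 4.93 CPM in these groups (log2 2.74, SE 0.56, adjusted p = 0.0134). In PyMT sections against WT organoids, 10 were lower and none higher (median -1.78, against 0.03 over all genes, of which 6.05% were lower), among them Pgk1, a glycolysis enzyme gene (log2 -2.85, SE 0.63, adjusted p = 0.0141). In Neu-NT sections against WT organoids 3 were lower and none higher, where 19% of all genes were called, 8.47% lower. In PyMT against Neu-NT sections 1 was lower and 1 higher, where 9.7% of all genes were called. Neu-NDL organoids had 2 higher and none lower than Neu-NT sections (4.06% of all genes higher). None was called in 6-day PyMT or in Neu-NDL organoids against WT organoids, nor in day 6 against day 0 PyMT organoids, where the median was 1.21.

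**Figure D5:**
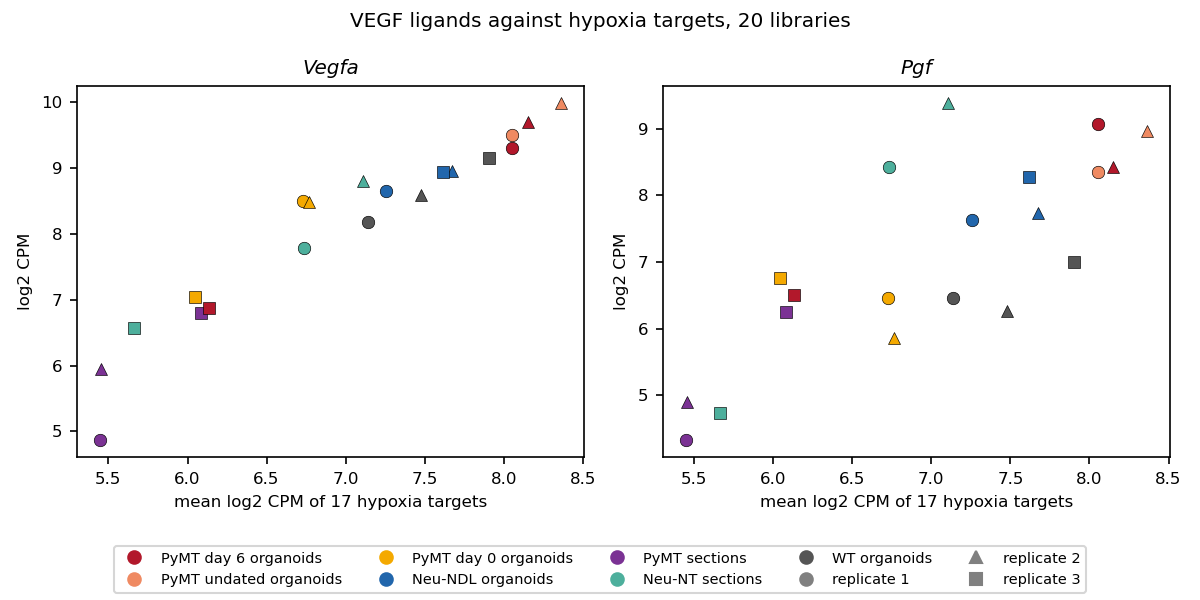
Log2 CPM of Vegfa and Pgf (vertical axes) against the mean log2 CPM of 17 hypoxia targets (horizontal axes), 1 point per library, colored by group. Vegfa follows the targets from the PyMT sections (5.45 to 6.08 on the horizontal axis) to the PyMT organoids after culture (up to 8.36), with r = 0.958, and Pgf does so less closely (r = 0.793).

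Among 9 oxygen-sensing genes, 5 were higher and none lower in 6-day PyMT organoids than in PyMT sections. Hif1a, which encodes a subunit of the hypoxia-inducible factor, had a log2 difference of 1.30 (SE 0.38, adjusted p = 0.0330), and Egln3, an oxygen-dependent prolyl hydroxylase gene that is itself induced by hypoxia, 3.93 (SE 0.93, adjusted p = 0.0185). The others were Hif3a, Vhl and Egln1. In PyMT sections against WT organoids, where 6.05% of all genes were lower, 3 of the 9 were lower and none higher, namely Hif3a, Egln1 and Egln3 (-3.34, SE 0.93, adjusted p = 0.0318).

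Of 12 genes of VEGF receptor signaling and response, the 6-day PyMT organoids had 2 above and 3 below the PyMT sections past the threshold. The higher ones were Shb, an adaptor of Kdr (log2 1.44, SE 0.30, adjusted p = 0.0139), and Apln, the ligand of the apelin receptor (log2 2.35, SE 0.73, adjusted p = 0.0408). The lower ones were Aplnr, the apelin receptor gene (log2 -4.09, SE 0.96, adjusted p = 0.0181), Ptprb, a vascular phosphatase gene (log2 -4.92, SE 1.20, adjusted p = 0.0200), and Dll4, a Notch ligand of sprouting vessels (log2 -2.53, SE 0.83, adjusted p = 0.0494). Of 5 angiopoietin and Tie genes, the receptor genes Tek (log2 -4.55, SE 1.12, adjusted p = 0.0206) and Tie1 (log2 -4.74, SE 1.36, adjusted p = 0.0319) were lower and none was higher in the same comparison. Shb was the 1 gene of the signaling list called in 6-day PyMT organoids against WT organoids (log2 1.15, SE 0.30, adjusted p = 0.0439). Of all genes, 3.89% were called there, 1.4% higher. In PyMT sections against WT organoids, Aplnr was higher (log2 4.66, adjusted p = 0.0198) and Nck1 lower (log2 -0.80, adjusted p = 0.0382). In Neu-NT sections against WT organoids, Aplnr was higher (log2 4.13, adjusted p = 0.0186) and Grb10 lower (log2 -2.49, adjusted p = 0.00654). In these 2 comparisons 12.5% and 19% of all genes were called.

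The class 3 semaphorins, which share the neuropilins with the VEGF ligands, changed one by one. In 6-day PyMT organoids against PyMT sections, Sema3f was higher (log2 1.97, SE 0.44, adjusted p = 0.0166) and Sema3g lower (log2 -3.78, SE 1.06, adjusted p = 0.0298) among 7 tested. Sema3c had 11.01 ± 0.743 CPM in Neu-NDL organoids, 18.6 ± 1.70 CPM in PyMT sections and 11.6 ± 7.08 CPM in Neu-NT sections, against 61.6 ± 11.5 CPM in WT organoids (SD, n = 3 each). It was called lower in all 3 (log2 -2.49, -1.73 and -2.42, with adjusted p = 0.0131, 0.0282 and 0.00373). Of all genes, 2.06%, 6.05% and 8.47% were lower in these comparisons. Sema3a was lower in 6-day PyMT than in Neu-NDL organoids (log2 -3.11, SE 0.66, adjusted p = 0.0153), and Sema3c higher (log2 1.49, SE 0.43, adjusted p = 0.0489). There 4.7% of all genes were lower and 2.42% higher. Sema3g was higher in Neu-NT sections than in WT organoids (log2 3.74, SE 1.16, adjusted p = 0.0349), where 10.5% of all genes were higher. Sema3f was lower in PyMT than in Neu-NT sections (log2 -2.07, SE 0.47, adjusted p = 0.0143), where 5.13% of all genes were lower. Of 5 plexin genes, which encode semaphorin receptors, none was called in 6-day PyMT organoids against PyMT sections or against WT organoids. Plxna3 was lower in Neu-NT sections than in WT organoids (log2 -1.52, SE 0.33, adjusted p = 0.00593), where 8.47% of all genes were lower.

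For each member, the 3 protein-coding genes outside the set, predicted gene names left out, with the highest Pearson r of log2 CPM over the 20 libraries were listed. The nearest to Vegfa were Hk2 (r = 0.945) and Ero1l (0.931), which both stand in the hypoxia list, and Ak4 (0.928). Those of Pgf were Adssl1 (0.937), Lama5 (0.936) and Grin1 (0.910), and those of Vegfb were Gpi1 (0.915), Setd3 (0.913) and Ift52 (0.892). Kdr lay nearest to Ccm2l (0.987), Robo4 (0.981) and Mmrn2 (0.979), and Flt4 to Adgrl4, Mmrn2 and Gimap6 (0.985 each). Nrp1 lay nearest to Arap3 (0.973), Fmnl1 (0.966) and Nrros (0.959). Flt1 had lower best values, with Noct (0.866), Cpne8 (0.836) and Uaca (0.830), as had Vegfc with Jcad (0.883), Cnn3 (0.880) and Col12a1 (0.857), and Nrp2 with Dock11 (0.837), Lce1g (0.808) and Tsku (0.803). Kdr and Flt4 were closest to each other among the 9 (r = 0.972), and Flt1 had r of 0.291 with Kdr.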

How the data were processed

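Poly(A) RNA was sequenced and the authors deposited whole-number read counts per Ensembl gene for each library. The tools named in the submitters' processing notes are CASAVA, FastQC, STAR, HTSeq and DESeq2, with mm10; strand, counting mode and annotation release are not given in the sources used here. The members and gene lists were chosen with earlier results of these data known. Counts were tested with edgeR 4.0.16 (R 4.3.3; TMM scaling, filterByExpr, robust quasi-likelihood fit, 1 mean per group over all 20 libraries, 13 residual degrees of freedom), which was first tested on simulated data. All 9 members are named, and other genes come from the lists or from the 3 most alike to each member. The day 6 and undated PyMT groups, both labelled 6 days, entered with equal weight. Log2 CPM used a prior count of 2, and RPKM used exon lengths from GENCODE M21, which matched 44671 of 45318 IDs. Alternatives were total-count or DESeq2-type (RLE) scaling of levels, DESeq2 1.42.0, no filter, only the libraries compared, a replicate block, the day 6 or undated PyMT libraries alone, and leaving out libraries. Replicate numbers were taken to pair libraries where every same-numbered pair had r over genes above 0.1. This r was taken on log2 CPM minus the mean of each library's group. The rule held in day 6 against day 0 PyMT organoids (0.287, 0.428 and 0.317) and in no other comparison. Differently numbered pairs were not set beside these values. No pair of replicates agreed within sampling noise.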

Additional observations from a re-analysis of the deposited data

Results flagged for a closer look

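Among the 5 PyMT organoid libraries after 6 days, day 6 replicate 3 lay far from the others in 5 of the 9 genes, by Dixon's criterion at 0.71. It had the lowest Vegfa, at 117 CPM, and the lowest Pgf, at 90.5 CPM. It had the highest Kdr (21.7 CPM), Flt4 (7.1 CPM) and Nrp1 (31.0 CPM). Chance flags about 1 in 20 such groups, and the 9 genes are not independent of each other, since 1 library gives all 5 flags. Beside these values its endothelial, macrophage and hypoxia marker levels differ from those of the other 4 libraries as given above, and their part in the values was not tested.

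Differences between models passed the test for 3 genes. Flt1 differed by a log2 of 3.76 and Nrp1 by -2.56 between 6-day PyMT and Neu-NDL organoids, and Pgf by -3.05 between PyMT and Neu-NT sections. These calls were lost under 2 of 16 (Flt1), 11 of 16 (Nrp1) and 7 of 12 (Pgf) alternatives. The organoid minus section difference of Flt1 differed by 5.21 between the PyMT and the Neu libraries, where 6.12% of all genes were called. That comparison was chosen after seeing the data, and on its Neu side material and allele cannot be told apart.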

How the results depend on the processing

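Of 61 gene-by-comparison results under the alternatives run, 697 values kept direction and side of the threshold, 72 lost the call, 75 gained it and 12 changed sign. Scaling by total counts moved group means by factors of 0.868 to 1.08, and DESeq2-type scaling by 0.982 to 1.02.

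The count of the 9 genes called moved as follows, and the cause was not tested. In parentheses after a count stands the number of all genes called in the same fit. With DESeq2 it was 3 (1800) in 6-day PyMT, 4 (3732) in PyMT sections and 2 (4610) in Neu-NT sections against WT organoids. It was 4 (2994) in PyMT against Neu-NT sections, 3 (2664) in Neu-NDL organoids against Neu-NT sections and 4 (2476) in the difference between models. Without a filter on low counts it was 0 (1217) in PyMT against Neu-NT sections and 1 (834) in 6-day PyMT against Neu-NDL organoids. With only the libraries compared it was 1 (1907) in Neu-NDL, 5 (4870) in PyMT sections and 3 (3064) in Neu-NT sections against WT organoids. It was then 0 (0) in 6-day PyMT organoids against PyMT sections and 0 (327) in PyMT against Neu-NT sections. It was also 0 (11) in 6-day PyMT against Neu-NDL organoids and 0 (45) in Neu-NDL organoids against Neu-NT sections. Where so few genes of any kind were called, a count of 0 says little of the members. The replicate block was fitted together with only the libraries compared, and it gave 1 (399) in Neu-NDL organoids and 6 (4052) in PyMT sections against WT organoids. It gave 0 in those same 4 comparisons, where no gene at all was called. By the rule that every pair has r above 0.1, the numbers pair libraries in day 6 against day 0 organoids alone, where no member was called with the block either. The day 6 libraries alone gave 0 (0) against PyMT sections and 1 (131) against Neu-NDL organoids, and the undated ones alone 1 (645) against Neu-NDL organoids.

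Without the pair of libraries that stood apart (PyMT day 6 organoids replicate 3 and Neu-NT sections replicate 3) the count was 5 in 6-day PyMT, 1 in Neu-NDL, 6 in PyMT sections and 3 in Neu-NT sections against WT organoids. Of all genes, 16.5%, 14.5%, 27% and 29% were then called. The count was 5 in day 6 against day 0 (18.8% of all genes), 1 in day 0 against PyMT sections (1.31%) and 4 in PyMT against Neu-NT sections (23.2%). It was 3 in Neu-NDL organoids against Neu-NT sections (15.6%) and 5 in the difference between models (23.2%). Leaving out single libraries gave 1 to 4 calls in 6-day PyMT, 0 to 2 in Neu-NDL, 0 to 1 in PyMT sections and 1 to 2 in Neu-NT sections against WT organoids. It gave 0 to 4 in day 6 against day 0, 0 to 0 in day 0 against PyMT sections, 0 to 8 in 6-day PyMT organoids against PyMT sections and 0 to 3 in PyMT against Neu-NT sections. The 8 calls came without PyMT day 6 replicate 3, where 6451 of all genes were called. Leaving out single libraries further gave the following. The count was 1 to 2 in 6-day PyMT against Neu-NDL organoids, 1 to 4 in Neu-NDL organoids against Neu-NT sections and 1 to 4 in the difference between models. The number of all genes called moved as well. Without PyMT day 6 replicate 3 it was 2025 in 6-day PyMT against WT organoids (728 with all libraries). It was then 2437 in day 6 against day 0 (117) and 3109 in 6-day PyMT against Neu-NDL organoids (1331). Without Neu-NT replicate 3 it was 3095 in PyMT against Neu-NT sections (1814). Neu-NDL organoids against Neu-NT sections then had 1710 (1491). The counts of members are not to be read without these numbers.

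Sign changes touched only uncalled values. In 6-day PyMT against WT organoids, the day 6 libraries alone gave -0.050 for Vegfb, 1.31 for Kdr, 0.54 for Flt4 and 0.52 for Nrp1, and Vegfc was -0.050 without that pair. Leaving out single libraries gave -0.087 to 0.47 for Vegfc and -1.70 to 0.21 for Kdr there, -0.014 to 0.46 for Vegfa in Neu-NDL against WT organoids, and -0.043 to 0.73 for Flt1 in day 6 against day 0. With 2 or 3 libraries a group, and as few as 2, 4 and 19 counts of Flt4, Vegfc and Kdr in a library, differences of low genes may be missed.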
